A study of Mus musculus with 9 samples.

Results

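CpG methylation was examined at 9 genes of the oligodendrocyte lineage in 9 whole-genome bisulfite libraries from the mouse nucleus accumbens, the part of the ventral striatum where dopamine fibres from the midbrain end. The genes were taken as a named list (Olig1, Olig2, Sox10, Cnp, Mbp, Mobp, Mag, Mog and Opalin) out of 34324 genes of the annotation, for their known roles and not by a threshold on these values. The DNA came from frozen tissue punches of male C57BL/6J mice aged 8 weeks, and no transgene or allele is named in the labels. Libraries labelled Control (n = 5, numbered 2, 3, 4, 5 and 8) were set against libraries labelled Susceptible (n = 4, numbered 2, 3, 6 and 7). Each number was taken as 1 mouse, which the labels do not spell out. The p-values of the group comparison set a difference against the spread between these libraries, shrunk towards that of all features. The stressor named in the labels is social defeat by an aggressive CD1 male, repeated daily for 10 days. The same treatment text stands with every library, Control included, so neither the handling of the Control mice nor the rule by which mice were called Susceptible can be read from it.

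Oligodendrocytes are the glia that wrap axons in myelin, a stack of membrane that insulates the axon. They arise from dividing precursors under basic helix-loop-helix and SOX transcription factors, and on maturing they switch on a set of genes for the proteins that compact myelin or face the axon. Methylation of CpGs in a promoter or enhancer usually goes with low activity, and CpG-rich promoters are mostly unmethylated in all cell types. A punch of nucleus accumbens is mainly neurons and glia of grey matter with strands of myelinated fibres. The DNA of oligodendrocytes is thus likely a minor part of what was sequenced, but its share was not measured here. A change in the share of oligodendrocytes and a change in methylation within them cannot be told apart in such DNA.

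The methylation level is the share of calls read as C after bisulfite, summed over the CpGs of a region. Calls at listed CpGs summed to between 313475624 and 570984634 per library, the 4 largest sums were those of the Susceptible libraries, and each listed cytosine had at least 10 calls. Control 5 and Control 8 stood apart: the strands of a CpG disagreed there with 18.4 and 19.7 times the variance that counting error gives, against 2.38 to 6.10 times in the other 7 libraries. This factor was taken only over partly methylated autosomal CpGs with calls on both strands. That choice itself favours CpGs whose strands disagree, so the factor is not one for all CpGs. Levels over all protein-coding gene bodies ranged from 77.9% in Susceptible 7 to 80.4% in Susceptible 6. Each gene was measured in a start window (1 kb on each side of the gene start), in its body (the rest of the gene) and in tiles of 1 kb over the gene and 10 kb of flank. Start windows held 354 to 6602 calls per library and bodies 1419 to 72248.

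The 9 start windows fell into a low group and a high group. Olig1, Olig2, Cnp, Mbp and Sox10 read 3.05 to 14.3% on average over the 9 libraries, and Mobp, Mag, Opalin and Mog read 69.9 to 83.0%. The low group had 53 to 132 CpGs listed in the window and the high group 20 to 24. For Mbp, Olig1 and Sox10 the start was itself taken as the CpG-richer end of the gene, so part of this contrast in CpG number is built in for these 3. Among protein-coding genes with a similar number of CpGs, the median start window read 2.50 to 11.3% around the low group and 82.0 to 83.6% around the high group. Mbp and Sox10 were high for their CpG number, above 87.9% and 87.5% of 2348 and 2361 similar genes, and Mobp was low for its number, above 24.7% of 1087.

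**Figure D1:**
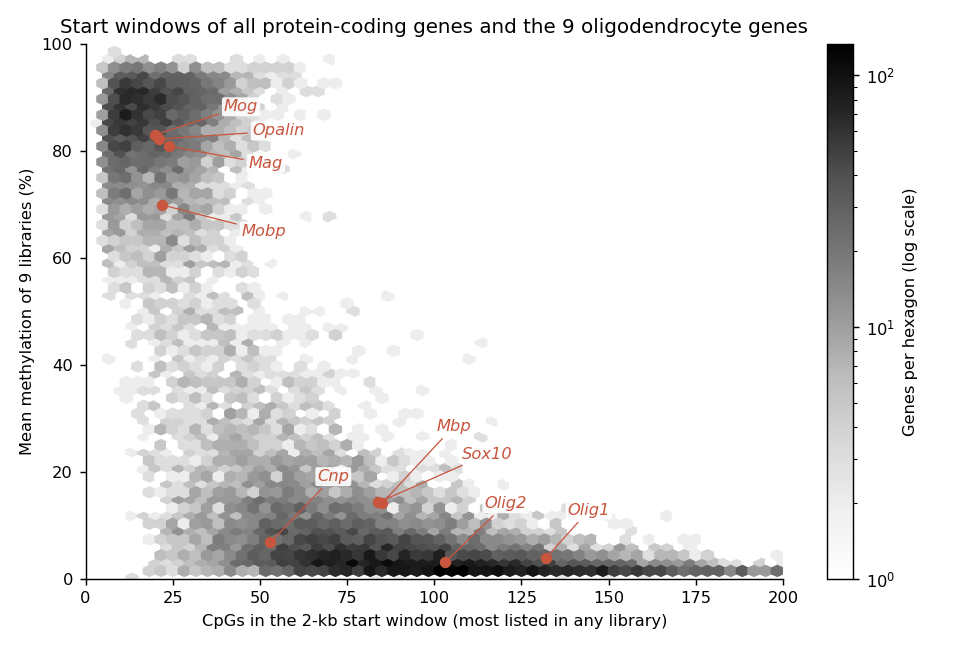
Mean methylation of the start window over 9 libraries (%, y axis) against the number of CpGs listed there (x axis). Grey hexagons count protein-coding genes on a log colour scale and red points are the 9 oligodendrocyte genes: Olig1, Olig2, Cnp, Mbp and Sox10 lie at 14.3% or less, and Mobp, Mag, Opalin and Mog at 69.9% or more.

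The contrast is visible in the sequence. The 250 bases before the start that the promoter table gives are shown for Olig2 and Cnp from the low group and for Mobp and Mog from the high group, 5′ to 3′ on the strand of the gene, from the RefSeq table of GRCm38.p6, with each CpG in capitals; the table held 6 of the 9 genes (Mog, Mag, Mobp, Cnp, Olig2 and Opalin). For Cnp the start of that table lies 30 bases inside the gene bounds given below, so the last 30 bases of its stretch are within these bounds.
Olig2, chr16:91225300-91225549, plus strand: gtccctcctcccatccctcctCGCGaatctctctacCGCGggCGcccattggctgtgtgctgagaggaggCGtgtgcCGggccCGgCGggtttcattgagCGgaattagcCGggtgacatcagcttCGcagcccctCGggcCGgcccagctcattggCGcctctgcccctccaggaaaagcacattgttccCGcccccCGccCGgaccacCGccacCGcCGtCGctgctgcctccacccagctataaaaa
Cnp, chr11:100574689-100574938, plus strand: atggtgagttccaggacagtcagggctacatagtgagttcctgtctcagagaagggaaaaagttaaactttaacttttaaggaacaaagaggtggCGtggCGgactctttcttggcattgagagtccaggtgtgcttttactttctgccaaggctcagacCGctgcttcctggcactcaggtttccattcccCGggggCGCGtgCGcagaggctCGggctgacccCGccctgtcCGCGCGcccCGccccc
Mobp, chr9:120149492-120149741, plus strand: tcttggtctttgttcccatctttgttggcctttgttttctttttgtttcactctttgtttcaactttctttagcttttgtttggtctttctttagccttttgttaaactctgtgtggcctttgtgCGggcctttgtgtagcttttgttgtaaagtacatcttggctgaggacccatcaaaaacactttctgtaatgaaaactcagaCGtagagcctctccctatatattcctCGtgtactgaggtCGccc
Mog, chr17:37023399-37023648, minus strand: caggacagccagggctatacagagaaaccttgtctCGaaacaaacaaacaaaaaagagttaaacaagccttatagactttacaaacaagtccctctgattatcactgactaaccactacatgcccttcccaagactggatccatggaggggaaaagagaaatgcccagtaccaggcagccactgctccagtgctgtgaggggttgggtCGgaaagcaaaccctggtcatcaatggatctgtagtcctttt

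These stretches hold 22 CpGs in Olig2, 13 in Cnp, 4 in Mobp and 2 in Mog, against a median of 6 over 26794 promoters of the table. The mean level over their listed CpGs was 0.399% in Olig2, 5.07% in Cnp, 60.8% in Mobp and 82.9% in Mog. Each CpG counted equally there, over the libraries that list it, and not all CpGs are listed in all 9. In Mobp those 125 and 44 bases before the start are listed in 4 and 5 libraries. Mag and Opalin, not shown, hold 3 and 4 CpGs, with means of 63.7% and 73.5%. In Cnp the methylated calls lay at the far end: the CpGs 155 and 150 bases before the table's start read 17.9% and 39.1%, and the other 11 read 0 to 4.66%. In Mobp the CpG 18 bases before the start, listed in all 9 libraries on 18 to 44 calls, read 41.4% ± 25.6 (SD, n = 9) and ranged from 3.13% in Control 5 to 77.3% in Control 8. Such a spread was not particular to Mobp. The Opalin CpG 7 bases before its start, on 19 to 66 calls, read 55.6% ± 29.4 (SD, n = 9). It ranged from 7.41% to 98.2% in the same libraries, Control 5 and Control 8. The sequence ACAAAG, a core to which SOX factors bind, was counted on both strands after the Mobp stretch had been read. It occurs 6 times there, and no other promoter of the table held more than 5. At least 1 copy lies in 16.5% of promoters. This is a description of letters and not of binding.

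Olig1, Olig2 and Sox10 encode transcription factors of the lineage. Olig1 and Olig2 are basic helix-loop-helix factors that lie close together on chromosome 16, and Olig2 is needed to specify precursors. Olig1 (chr16:91269769-91271939) read 3.84, 4.76, 3.98, 4.76 and 2.47% in the start windows of Control 2, 3, 4, 5 and 8, and 3.95, 4.05, 4.20 and 2.79% in Susceptible libraries 2, 3, 6 and 7. Its body was as low, at 1.34 to 3.62%. Olig2 (chr16:91225550-91228677) read 4.52, 2.92, 1.89, 1.41 and 3.98% in the Control start windows and 3.32, 3.09, 3.18 and 3.10% in the Susceptible ones, and its body read 2.72 to 7.68%. The groups overlapped in all of these, and the 2 bodies were the lowest of the 9: only 0.343% and 0.808% of protein-coding genes had a lower body level. Olig1 and Olig2 are short, at 2171 and 3128 bp, so these bodies lie close to the CpG-rich start. They were ranked against bodies of all lengths.

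Both genes sit in stretches of low or partial methylation. Around Olig2, 9 tiles in a row were low (under 20% on average) or intermediate (20 to 60%), chr16:91220001-91229000, with means of 1.83% to 32.3%. This stretch reaches from 5.05 kb before the start to 2.95 kb after it, at tile centres, so it covers the whole gene. Its start tile (chr16:91225001-91226000) read 1.83% ± 1.33 (SD, n = 9) and the next tile 2.06% ± 0.640 (SD, n = 9). Around Olig1 the stretch was 5 tiles, chr16:91268001-91273000, with means of 1.60 to 51.3%. The 2 lowest of these were chr16:91270001-91271000 at 1.60% ± 0.433 (SD, n = 9) and the start tile, chr16:91269001-91270000, at 2.89% ± 0.944 (SD, n = 9).

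Sox10 (chr15:79154913-79164490, minus strand), the SOX factor that drives myelin genes together with Myrf, had a low start and a body that was partly methylated. Its start window read 12.6, 15.7, 12.2, 15.9 and 14.0% in Control libraries 2, 3, 4, 5 and 8, and 15.1, 14.2, 17.95 and 11.1% in Susceptible libraries 2, 3, 6 and 7. The body read 63.9, 61.9, 58.8, 69.4 and 66.3% in the same Control libraries and 63.8, 65.1, 64.9 and 58.0% in the Susceptible ones. The groups overlapped in both. The low part lay just inside the gene: the tile chr15:79163001-79164000 read 8.84% ± 1.60 (SD, n = 9) and the start tile, chr15:79164001-79165000, read 32.8% ± 8.78 (SD, n = 9).

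Cnp and Mbp are myelin genes with low starts. Cnp (chr11:100574909-100591875) encodes the cyclic nucleotide phosphodiesterase of non-compact myelin. Its start window read 7.09, 8.38, 9.28, 10.9 and 2.80% in the Control libraries in the same order and 6.17, 5.15, 6.94 and 4.41% in the Susceptible ones. Its body read 77.2% ± 2.19 (SD, n = 9), and inside the gene the low tiles were those at the start: the tile just inside the gene, chr11:100575001-100576000, read 3.69% ± 1.0 (SD, n = 9) and the start tile, chr11:100574001-100575000, 13.3% ± 6.55 (SD, n = 9). Another low tile lay upstream, 3.41 kb before the start (chr11:100571001-100572000, 8.21% ± 4.82, SD, n = 9), inside the neighbouring gene Ttc25.

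Mbp (chr18:82475091-82585637) encodes myelin basic protein, which holds the cytoplasmic faces of the membrane together. The gene as annotated is long because it includes the upstream Golli unit, whose transcripts are also made outside myelinating cells, and the classic myelin transcripts start further inside, at a place that the tables used here do not give. The start window read 16.3, 12.5, 14.8, 18.8 and 7.48% in Control libraries 2, 3, 4, 5 and 8, and 14.1, 14.97, 12.4 and 15.6% in Susceptible libraries 2, 3, 6 and 7. Control 5 and Control 8 were the highest and the lowest, and the Susceptible values lay between them. The body read 74.5 to 79.2%. Its start tile, chr18:82475001-82476000, read 3.22% ± 1.25 (SD, n = 9) and the tile after it 22.7% ± 4.94 (SD, n = 9).

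Mbp held 10 of the 14 intermediate tiles found inside the 9 genes. Of 103 tiles inside the gene, 1 was low, 10 were intermediate and 92 were high (above 60%). Away from the start the deepest dip was chr18:82508001-82509000, 33.4 kb inside the gene, at 26.3% ± 11.1 (SD, n = 9). Its libraries ranged from 13.6% in Control 5 to 51.2% in Control 8. The tile chr18:82493001-82494000 read 44.3% ± 16.6 (SD, n = 9), on as few as 50 calls in a library.

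Mobp, Mag, Mog and Opalin encode proteins of the myelin sheath with methylated starts. Mobp (chr9:120149742-120181488) encodes myelin-associated oligodendrocyte basic protein. Its start window read 77.7, 77.3, 69.1, 68.7 and 76.2% in Control libraries 2, 3, 4, 5 and 8, and 71.3, 68.4, 57.2 and 63.1% in Susceptible libraries 2, 3, 6 and 7. Only Susceptible 2 was above any Control library, and Susceptible 6 was the lowest. The body read 76.9 to 82.5%, and all 29 tiles inside the gene were high, down to 60.5% on average. The 2 lowest tiles lay outside it, at chr9:120191001-120192000 (8.94% ± 3.47, SD, n = 9), downstream, and chr9:120140001-120141000 (22.9% ± 4.84, SD, n = 9), upstream.

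Mag (chr7:30899175-30914922, minus strand) encodes myelin-associated glycoprotein, an adhesion molecule on the membrane that faces the axon. Its start window read 78.6, 78.9, 83.0, 83.4 and 94.6% in Control libraries 2, 3, 4, 5 and 8, and 76.1, 79.9, 78.7 and 74.8% in Susceptible libraries 2, 3, 6 and 7. The low part of Mag lay not at the start used here but inside the gene. The promoter table holds 3 entries for Mag. The one at the gene bound was used, and the others were not compared with this low part. The tile chr7:30908001-30909000, 6.42 kb from the start, read 10.9% ± 3.18 (SD, n = 9), between 5.10 and 14.9%, on 435 to 782 calls. The tile next to it on the side of the start read 31.5% ± 8.43 (SD, n = 9). The start tile read 80.9% ± 7.59 (SD, n = 9), so every library was lower inside the gene than at its start. No other gene of the annotation overlaps or starts within 1 kb of these 2 tiles.

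Opalin (chr19:41061959-41077113, minus strand), a glycoprotein of central myelin, showed a similar profile. Its start window read 81.8, 78.2, 72.0, 89.5 and 86.2% in Control libraries 2, 3, 4, 5 and 8, and 83.7, 80.0, 84.4 and 84.0% in Susceptible libraries 2, 3, 6 and 7. The tile chr19:41071001-41072000, 5.61 kb inside the gene, read 29.9, 10.5, 26.5, 20.4 and 10.4% in the 5 Control libraries. The 4 Susceptible libraries read 10.5, 11.3, 16.8 and 4.33% there. The Susceptible values lay in the lower part of the Control range, apart from Susceptible 7, which was below it. The difference was -8.84 points on 137 to 239 calls per library, with an unadjusted p of 0.0665 in the quasi-binomial model. The other 14 tiles inside Opalin were high.

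Mog (chr17:37010740-37023398, minus strand) encodes myelin oligodendrocyte glycoprotein of the outermost lamella. Its start window read 76.6, 82.3, 79.1, 93.0 and 86.4% in Control libraries 2, 3, 4, 5 and 8, and 84.1, 83.2, 82.1 and 80.5% in Susceptible libraries 2, 3, 6 and 7. All 11 tiles tested inside Mog were high, with a median of 85.5%. Low tiles lay only in its flanks, at chr17:37028001-37029000, 5.10 kb upstream (3.98% ± 3.58, SD, n = 9), and at chr17:37002001-37003000 (2.92% ± 0.836, SD, n = 9), where the gene Zfp57 starts.

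Over the 9 genes, 360 tiles were tested, of which 18 were low, 29 intermediate and 313 high. Over all 1041809 tiles the shares were 2.96%, 5.54% and 91.5%. The tile nearest above the limit of 20% was chr16:91224001-91225000 at Olig2 (21.1%), and on either side of 60% lay a tile of Mbp at 58.9% and a tile of Mobp at 60.5%. The order of body levels was Olig1 (2.54%), Olig2 (4.4%), Sox10 (63.6%), Mag (70.3%), Mbp (77.1%), Cnp (77.2%), Mobp (80.0%), Opalin (80.1%) and Mog (84.6%). Mbp and Cnp, and Mobp and Opalin, differed by less than their spread between libraries.

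The comparison of Control with Susceptible mice asked whether these levels differed between the labelled groups. Exposure to defeat and the response to it cannot be told apart here, as no further group of defeated mice is present. No start window, body or tile of the 9 genes passed an adjusted p of 0.05 in the quasi-binomial model with Benjamini-Hochberg adjustment over all features. None passed anywhere else either: 0% of 30874 start windows, 0% of 30258 bodies and 0% of 1041809 tiles were called, with unadjusted p under 0.05 in 1486, 1181 and 45605. limma on the logit scale also called 0 of each, with 1186, 1098 and 33856 at an unadjusted p under 0.05. Among the 9 genes, 1 start window (Mobp) and 1 body (Mag) had an unadjusted p under 0.05, both with the lower mean in Susceptible mice, against a background of 4.81% of start windows and 3.9% of bodies. With limma neither was under 0.05 (unadjusted p = 0.0526 for the Mobp start and 0.0731 for the Mag body). By direction the background was 2.6% of start windows with the lower and 2.21% with the higher mean, and 1.9% and 2% of bodies. The libraries of the groups overlapped in all 9 start windows and all 9 bodies, where 1.89% and 1.36% of all features did not overlap. Without Control 5 and Control 8, 3 of the 9 start windows had an unadjusted p under 0.05 in the quasi-binomial model. The share over all start windows was 5.34%, with 2.64% of the higher mean. The 3 were Mobp and Cnp with the lower and Opalin with the higher mean in Susceptible mice. In that setting 0 of the 9 bodies were under 0.05, beside 3.26% of all. A count of 1 or 3 among 9 is a matter of single genes, and no statement on the 9 together is made from it.

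The Mobp start window had a Control mean of 73.8% ± 4.49 (SD, n = 5) and a Susceptible mean of 65.0% ± 6.19 (SD, n = 4). They differed by -8.81 points (quasi-binomial model, unadjusted p = 0.0293, adjusted p = 0.970), and the groups overlapped through Susceptible 2. Over 2000 bp on each side of the start the difference was -2.97 points (unadjusted p = 0.307). Without Susceptible 6 it was -6.22 points (unadjusted p = 0.104). The unadjusted p was also over 0.05 without Control 2, Control 3, Control 8 or Susceptible 7, one at a time (0.0556 to 0.0665). Without Control 5 and Control 8 the difference was -9.71 points (unadjusted p = 0.0351). At the start tile, chr9:120149001-120150000, it was -8.34 points (unadjusted p = 0.0413) and -4.64 points without Susceptible 6 (unadjusted p = 0.199). These are the same CpGs in large part and not a separate result.

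The Mag body had a Control mean of 71.7% ± 2.23 (SD, n = 5) and a Susceptible mean of 68.6% ± 1.46 (SD, n = 4). They differed by -3.17 points (quasi-binomial model, unadjusted p = 0.0330, adjusted p = 1.0). Control 3, at 68.4%, lay among the Susceptible libraries. Leaving out 1 library gave -3.99 to -2.51 points, with unadjusted p of 0.00825 (without Control 3) to 0.0843 (without Control 8). Without Control 5 and Control 8, whose strands disagreed most, it was -1.83 points (unadjusted p = 0.173). The Mag start window differed by -6.30 points (unadjusted p = 0.0698), with Control libraries at 83.7% ± 6.5 (SD, n = 5) and Susceptible ones at 77.4% ± 2.33 (SD, n = 4), and its highest value was that of Control 8. It was -3.57 points without Control 8 and -2.76 points without Control 5 and Control 8.

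The other 7 start windows differed by -2.01 (Cnp) to +1.48 points (Opalin), and the other 8 bodies by -2.84 (Mog) to +1.37 points (Mobp), with unadjusted p of 0.173 or more. Single libraries moved these values by over 1.5 times in both directions. The Mog body difference was -4.31 points without Control 4, -1.85 points without Control 8 and -0.588 points without Susceptible 7. For the Mobp body it was +2.59 points without Susceptible 7 (unadjusted p = 0.0129) and +0.752 to +0.8005 points without Control 4, Susceptible 2 or Susceptible 6. For the Mbp body it was +1.56 points without Control 5 (unadjusted p = 0.0362), +1.55 points without Susceptible 7 (unadjusted p = 0.0335) and +0.401 points without Control 8 (unadjusted p = 0.432). The Cnp start difference was -3.23 points without Control 8 (unadjusted p = 0.0182), -1.22 points without Control 5 (unadjusted p = 0.387) and -0.586 points over CpGs listed in all 9 libraries (unadjusted p = 0.573). Without Control 5 and Control 8 it was -2.58 points (quasi-binomial model, unadjusted p = 0.0378). The Opalin start difference was +5.69 points in that setting (unadjusted p = 0.0490).

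In start windows 4 of the 9 had the higher mean in Susceptible mice, with a median difference of -0.214 points beside -0.103 over all genes tested, of which 47.2% had the higher mean. Leaving out 1 library gave start medians of -0.919 (2 of 9 higher, without Control 4) to -0.0138 points (without Control 5). The start median was -2.59 points with at least 20 calls and +0.0866 points, with 5 of 9 higher, within 500 bp. In bodies 3 of 9 had the higher mean, with a median of -0.684 points beside -0.150, and 45.5% of all bodies had the higher mean. The direction in bodies turned without Susceptible 7, and also in settings that kept this library. Without Susceptible 7, 6 of 9 had the higher mean, the median was +0.550 points beside +0.352 over all genes, and 60.5% of all bodies had the higher mean. Without Control 5 and Control 8 it was 5 of 9, with a median of +0.504 points. Over CpGs listed in all 9 libraries it was also 5 of 9, with a median of +0.418 points. The median was -0.0695 points without Control 5 and -1.38 points without Susceptible 2.

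**Figure D2:**
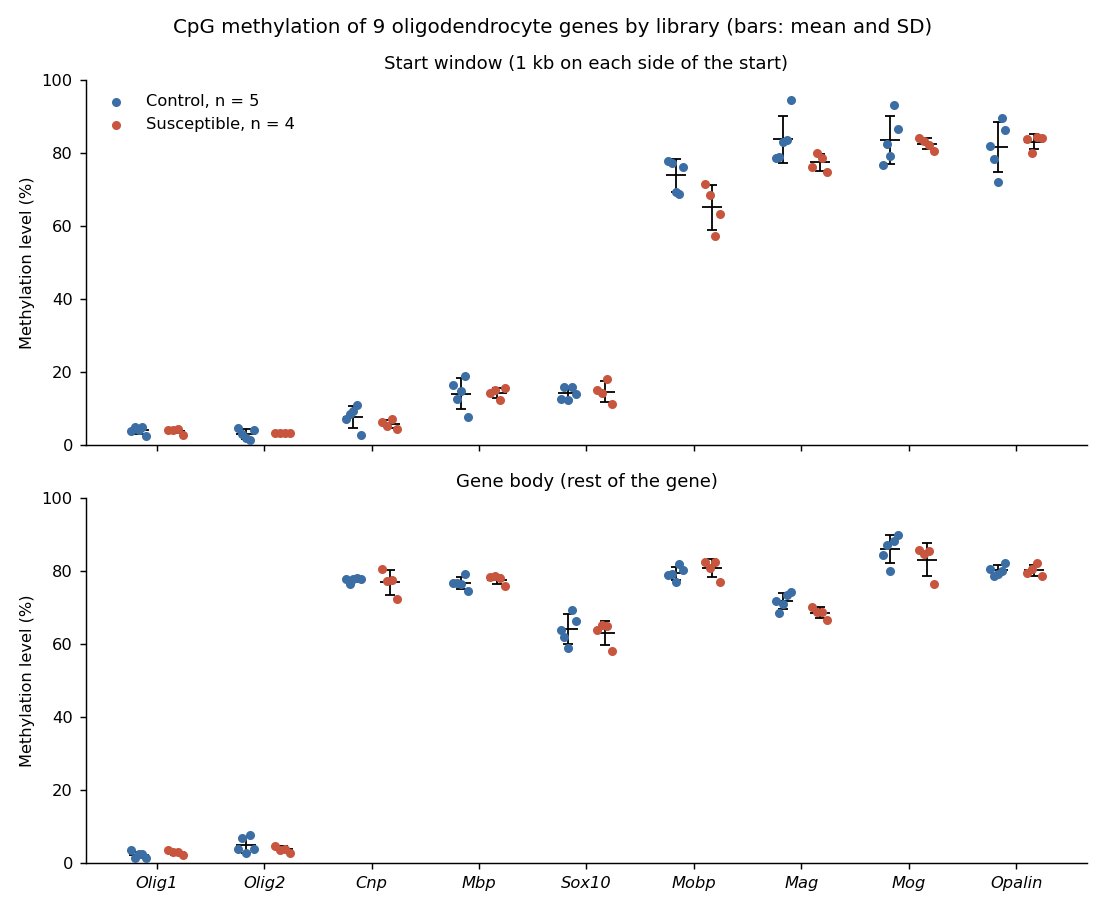
Methylation level (%, y axis) of the start window (top) and the gene body (bottom) of each gene in Control (blue, n = 5) and Susceptible (red, n = 4) libraries; points are libraries and black bars the mean and SD. The groups overlap for every gene in both panels, with Mobp at 73.8% and 65.0% in the start window and Mag at 71.7% and 68.6% in the body.

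Among the 360 tiles, 20 had an unadjusted p under 0.05, 10 with the higher and 10 with the lower mean in Susceptible mice, beside 4.38% of all tiles (2.18% higher and 2.19% lower). In 9 tiles the libraries of the groups did not overlap, beside 1.56% of all tiles. All 20 had an adjusted p of 0.997 or more. Mbp held 9 of them, 7 with the higher mean in Susceptible mice, out of 122 tiles. With the flanks counted, Mog and Mag had 3 each, all with the lower mean, Mobp 2, Olig1, Olig2 and Sox10 1 each, and Cnp and Opalin none. Most of the tiles of Mog and Mag, and those of Olig1 and Sox10, lay in the flanks outside the gene.

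The smallest p of the 9 genes was in Mbp. The tile chr18:82485001-82486000, 10.4 kb inside the gene, read 65.1, 54.8, 59.8, 41.7 and 58.2% in Control libraries 2, 3, 4, 5 and 8, and 74.5, 71.4, 75.2 and 71.2% in Susceptible libraries 2, 3, 6 and 7. Every Susceptible library was above every Control library, and Control 5 was the lowest. The means were 55.9% ± 8.79 (SD, n = 5) and 73.1% ± 2.06 (SD, n = 4) on 240 to 541 calls per library, a difference of +17.2 points (quasi-binomial model, unadjusted p = 0.000497, adjusted p = 0.997). Without Control 5 and Control 8 it was +13.2 points (unadjusted p = 0.00075, adjusted p = 0.963).

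Other Mbp tiles had differences in either direction. The tile chr18:82480001-82481000, 5.41 kb inside, had a Control mean of 66.7% ± 5.62 (SD, n = 5) and a Susceptible mean of 77.0% ± 2.08 (SD, n = 4), and the groups did not overlap (+10.3 points, unadjusted p = 0.00156). Its difference was +6.46 points without Control 5 and Control 8 and +4.54 points with the replicate number as a block, which uses only the 4 libraries numbered 2 and 3. In the tile 19.4 kb inside, the Susceptible mean was the lower one, at 61.9% ± 7.39 (SD, n = 4) beside 77.3% ± 8.32 (SD, n = 5), and the groups overlapped (-15.4 points, unadjusted p = 0.00437). Over CpGs listed in all 9 libraries its difference was -6.99 points (unadjusted p = 0.215). The 9 tiles are spread from 5.41 to 93.4 kb inside the gene and the whole body differed by +0.939 points (unadjusted p = 0.173).

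**Figure D3:**
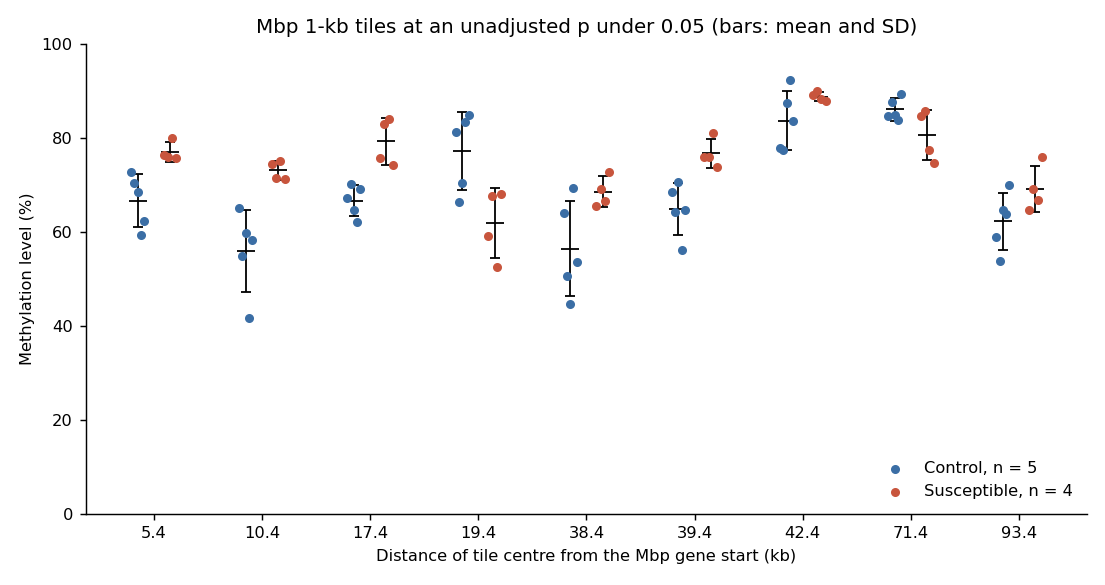
Methylation level (%, y axis) of the 9 Mbp tiles with an unadjusted p under 0.05, by distance of the tile centre from the gene start (kb, x axis), in Control (blue, n = 5) and Susceptible (red, n = 4) libraries; black bars are the mean and SD. They were picked by this p from 122 Mbp tiles, so the separation seen follows in part from the choice. All have an adjusted p of 0.997 or more in the quasi-binomial model. In 7 tiles the Susceptible mean is the higher and in 2 the lower, and in 4 the libraries of the groups do not overlap. Over all tiles, picked or not, 1.56% did not overlap.

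Each of the other genes also has a tile of smallest p. In Olig2 it was the tile chr16:91226001-91227000, just inside the gene, with 1.68, 1.73, 1.77, 1.20 and 1.46% in the 5 Control libraries, whereas the 4 Susceptible libraries read 3.07, 2.63, 2.73 and 2.29%. The groups did not overlap, and the difference was +1.11 points on 1744 to 4726 calls per library (quasi-binomial model, unadjusted p = 0.00998, adjusted p = 0.997). In Mog it was chr17:37018001-37019000, 4.90 kb inside, with 77.6, 85.1, 73.7, 80.2 and 77.6% in the 5 Control libraries, and the 4 Susceptible libraries read 72.3, 63.1, 72.1 and 35.9%. Its difference of -17.97 points (unadjusted p = 0.0166) was -9.66 points without Susceptible 7, the lowest library (unadjusted p = 0.0790). In the other 6 genes the groups overlapped in this tile, at unadjusted p of 0.0235 to 0.0630. The differences were -11.7 points at Mag, -12.3 points at Olig1 and -9.35 points in Cnp. They were +7.02 points in Mobp, +5.78 points at Sox10 and +4.58 points at Opalin. The tiles of Mag, Olig1, Sox10 and Opalin lay in the flanks outside the gene, and those of Cnp and Mobp inside it. The Mag difference was -0.0576 points over CpGs listed in all 9 libraries (unadjusted p = 0.889) and -0.386 points with the replicate block (unadjusted p = 0.953). Without Control 8 the Opalin difference was +1.69 points, without Control 5 and Control 8 it was +0.334 points, and with the block +0.00489 points. That of Olig1 was -7.84 points without Susceptible 7 and -4.64 points with the block. That of Sox10 was +8.76 points with at least 20 calls and +9.61 points with the block.

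The rest of the oligodendrocyte programme was read from 28 further genes for myelin proteins and lipid enzymes, transcription factors and precursor markers. None passed the adjusted threshold. Over all genes tested, 47.2% of start windows and 45.5% of bodies had the higher mean in Susceptible mice. In start windows 6 of 27 tested had the higher and 21 the lower mean in Susceptible mice, with a median of -0.709 points beside -0.103 over all genes, and 2 had an unadjusted p under 0.05, both with the lower mean (Bcas1, a gene of early myelinating cells, -7.51 points, unadjusted p = 0.0369, and Enpp2, which encodes autotaxin, -3.56 points, unadjusted p = 0.0461). Over all start windows 4.81% had an unadjusted p under 0.05 in the same model, 2.6% with the lower mean. Susceptible 7 was the lowest library for Bcas1 and for Enpp2. Without it Bcas1 differed by -4.33 points (unadjusted p = 0.117) and Enpp2 by -1.91 points (unadjusted p = 0.150). Over CpGs listed in all libraries the Enpp2 difference was +0.331 points, and with the replicate block that of Bcas1 was -0.257 points. The size of the start median moved with single libraries. It was -1.16 points without Control 2, -0.460 points without Control 3 and -0.267 points without Control 5 (9 higher, 18 lower). It was -0.168 points within 500 bp (12 higher, 14 lower), -0.372 points over CpGs listed in all libraries (11 higher, 14 lower) and -0.245 points with the replicate block (12 higher, 16 lower). In bodies 6 of 28 had the higher and 22 the lower mean, with a median of -0.694 points beside -0.150. Without Susceptible 7 these were 15 higher and 13 lower, with a median of +0.0331 points, beside 60.5% of all bodies with the higher mean. With the block they were 12 higher and 16 lower, with a median of -0.226 points. The smallest unadjusted p were those of Gjb1, a connexin (-7.65 points, unadjusted p = 0.0359), Pdgfra, the receptor that marks precursors (-2.75 points, unadjusted p = 0.0375), and Enpp6, a marker of newly formed oligodendrocytes (-0.872 points, unadjusted p = 0.116). Of the 28 bodies 2 had an unadjusted p under 0.05, both with the lower mean, beside 3.9% of all bodies, 1.9% with the lower mean. The Enpp6 difference was -0.377 points without Susceptible 7. That of Pdgfra was -1.39 points over CpGs listed in all libraries, and that of Gjb1 was -1.71 points with at least 20 calls.

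Lists for other cell types were set beside them. In bodies, 4 of 16 neuron genes, 10 of 10 astrocyte genes, 9 of 10 microglia genes and 5 of 8 endothelial genes had the lower mean in Susceptible mice, with medians of +1.77, -2.38, -1.09 and -0.442 points. Without Susceptible 7 these counts were 5, 6, 6 and 3, with medians of +1.56, -0.663, -0.270 and +0.327 points. Leaving out each library in turn, the medians ranged over +1.05 (without Susceptible 6) to +2.24 (without Susceptible 2), -2.64 (without Control 3) to -0.663, -1.55 (without Susceptible 2) to -0.270 and -0.828 (without Susceptible 6) to +0.327 points. With the replicate block 8 of 16 neuron genes and 4 of 10 astrocyte genes had the lower mean, with medians of +0.00815 and +0.952 points, and the microglia and endothelial medians were -0.417 and -0.0549 points. In start windows 10 of 16 neuron genes, 9 of 10 astrocyte genes, 7 of 10 microglia genes and 6 of 7 endothelial genes had the lower mean, with medians of -0.384, -3.27, -0.670 and -0.529 points. The neuron genes thus had opposite median signs in bodies and start windows. The neuron start median was +0.104 points without Control 8, and that of the microglia genes +0.131 without Control 2 and +0.765 without Control 5. The astrocyte start median was -0.489 points without Susceptible 7 (6 of 10 lower), -1.55 without Control 5 and -1.66 without Control 8. The endothelial one ran from -1.85 (without Susceptible 6) to -0.0763 points (without Control 8). With the block the start medians were -0.134, +0.838, -0.413 and +0.205 points. No gene of these lists passed the adjusted threshold. The median body level per library was 67.8 to 71.7% over the neuron genes, 67.7 to 76.9% over the astrocyte genes, 82.2 to 86.6% over the microglia genes and 82.5 to 85.4% over the endothelial genes. Susceptible 7 was the lowest library in the last 3 and in the 28 oligodendrocyte genes (76.1%). Their part in the values of the 9 genes was not tested.

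Susceptible 7 was also the lowest library in 6 of the 9 bodies (Olig2, Sox10, Cnp, Mag, Mog and Opalin). It had the lowest level over all protein-coding bodies too, and after that level was subtracted from each library it was the lowest in 2 of 9 (Cnp and Mog). The mean of the 9 centred body levels was highest in Control 5 (-17.9 points) and Control 8 (-18.2 points) and lowest in Susceptible 7 (-21.3 points) and Control 4 (-20.8 points). The 2 libraries at the top are those whose strands disagreed most.

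Whether the 9 genes moved together between punches was asked over their 36 pairs, on centred body levels of the 9 libraries. None of the 36 correlations passed an adjusted p of 0.05 (two-sided exact permutation test, Benjamini-Hochberg adjustment over the 36 pairs), 2 had an unadjusted p under 0.05, and 25 of 36 were positive with a median Pearson r of 0.168. Without Control 5 the median was 0.066, with 21 positive. Leaving out each other library gave medians of 0.129 to 0.232. The strongest was Mog with Sox10, with r = 0.79 (exact permutation p = 0.0115, adjusted p = 0.416) and Spearman's rho = 0.70 (exact permutation p = 0.0433, adjusted p = 0.684). Both genes were high in Control 5 and Control 8 and low in Control 4 and Susceptible 7. Without Control 8 and Susceptible 7, the libraries farthest from the median of Mog, r was 0.72. Without Control 5 and Control 8 it was also 0.72, with an exact permutation p of 0.0589.

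Mobp with Sox10 had r = 0.70 (exact permutation p = 0.0385, adjusted p = 0.580), rho = 0.55 (exact permutation p = 0.133, adjusted p = 0.759) and r = 0.73 without Control 4 and Susceptible 2. Mbp had r = 0.16 with Sox10 and r = -0.29 with Mog. These rest on few libraries: without Control 8 and Susceptible 3, the farthest from the median of Mbp, they were 0.66 and 0.21. Olig1 with Mog (r = -0.65) and Olig2 with Opalin (r = -0.64) were the most negative. Without the 2 libraries farthest from the median of Mog and of Olig2 they were -0.41 and -0.24. Each of these pairs holds a body that reads a few percent. Over the 21 pairs of the other 7 genes, a choice made after the data had been seen, the median r was 0.37 with 17 positive.

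The pattern depended on how levels were taken. Without centring, 30 of 36 pairs were positive with a median r of 0.47, and none passed the adjusted threshold. With group means also subtracted, 1 pair did (Mobp with Sox10, r = 0.91, permutation adjusted p = 0.0306). The libraries were permuted across the groups after each group's mean had been subtracted. This p is therefore not exact and may be too small, and no conclusion is drawn from it. Over CpGs listed in all 9 libraries the median r was 0.05 and Mog with Sox10 had r = 0.59. On the intermediate tiles, where Opalin has none and 28 pairs remain, and where those of Mog, Mobp, Cnp and Olig1 all lie in the flanks and not inside the gene, the median r was -0.12 and Mog with Sox10 had r = 0.22.

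**Figure D4:**
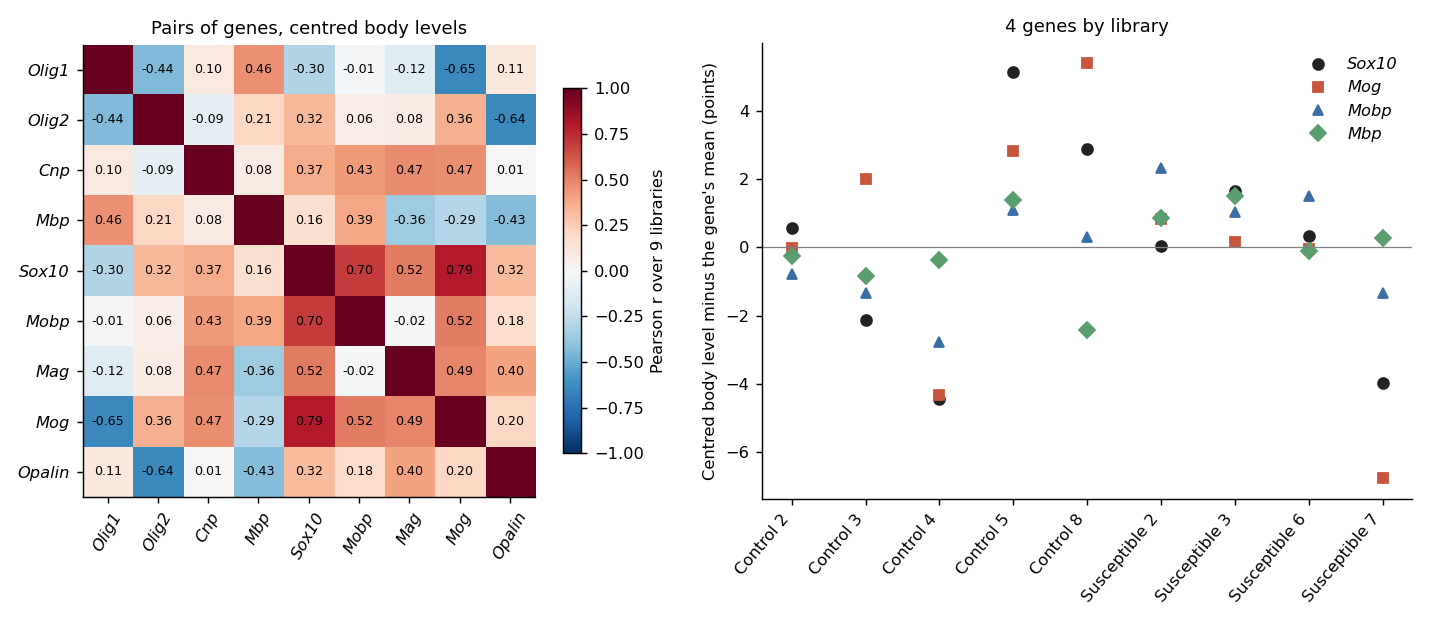
Left: Pearson r over 9 libraries between the centred body levels of each pair of genes (colour scale from -1 to 1). Right: centred body level minus the gene's own mean (percentage points, y axis) in each library for Sox10, Mog, Mobp and Mbp; Sox10 and Mog are high in Control 5 and Control 8 and low in Control 4 and Susceptible 7, with r = 0.79. Mbp has r = 0.16 with Sox10, and 0.66 without Control 8 and Susceptible 3.

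The mean of the 9 centred body levels was also compared with every other gene. Of 7483 protein-coding genes with at least 5000 body calls in every library, those with the highest r were Abca1 (0.98), Smox (0.98), Smoc1 (0.97), Cfap299 (0.97) and Vangl2 (0.96). The median r was 0.43 over 13 further oligodendrocyte genes with enough calls (11 positive), -0.51 over 8 neuron genes (3 positive), 0.62 over 4 astrocyte genes (4 positive), 0.33 over 3 microglia genes (3 positive) and 0.46 over 5 endothelial genes (5 positive). Over all 7483 genes it was 0.04, with 3907 positive. These values share the 9 libraries, with their depth and strand noise, and are a description.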

How the data were processed

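DNA from 9 nucleus accumbens punches was sequenced after bisulfite treatment (Pico Methyl-seq kit, per the labels' protocols). The submitters' processing notes name Bismark, Bowtie, Picard and the build mm10, without versions. Per the file headers, the deposited coverage is the count of calls at a cytosine on 1 strand, and 2 deposited columns give the percent of these calls read as C and as T. As deposited, no cytosine has under 10 calls, so levels rest on the better covered CpGs only. Calls listed ranged from 313475624 to 570984634 per library. In Control 5 and Control 8, 4 and 8 repeated entries were reduced to 1 each. The labels name no batch.

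Strands of a CpG were added and calls summed over start windows, bodies and tiles. All 326511 listed CpGs that lie inside 26794 RefSeq promoters (GRCm38.p6) sit at CG there. Gene bounds came from a RefSeq table of the same build, which gives no exons. The strand came from the promoter table, and for Mbp, Olig1 and Sox10 the CpG-richer end was taken as the start, which matches the promoter table in 74.7% of 25760 genes that could be compared.

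Groups were compared with a quasi-binomial logistic model (numpy 2.4.6, scipy 1.17.1) wherever each of the 9 libraries had 3 CpGs and 20 calls or more. The Pearson dispersion was shrunk as in limma's squeezeVar, with a floor of 1, with an F test of the group and Benjamini-Hochberg adjustment over all features, two-sided. The model weighs libraries by their calls, whereas the differences given in points are between unweighted means of library levels. The code was run on simulated data with a single dispersion for each kind of feature, unlike the spread of dispersions seen here, and no result rests on it. limma 3.58.1 (R 4.3.3) on log2 of methylated over unmethylated calls, each plus 0.5, was the alternative. Other alternatives were other windows, coverage and CpG sets, a replicate block and leaving out libraries (for the gene lists, and single libraries for the covariation, chosen after seeing the data). Named tiles are the start tile, the 2 lowest and the one of smallest p in each gene, and further Mbp tiles were chosen after their values were seen. Named further oligodendrocyte genes are the 3 of smallest p, of which 1 start window is not reported here. The genes and lists were chosen with earlier results of these data known. SDs are between libraries.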

Additional observations from a re-analysis of the deposited data

Results flagged for a closer look

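In 3 of 36 groups looked at (9 genes, start window and body, 2 groups of mice) 1 library lay far from the others of its group. The nominal rate of such flags by chance is about 1 in 20 groups and was not measured here. In the Opalin start window Susceptible 3 was the lowest at 80.0%, with the other 3 Susceptible libraries at 83.7 to 84.4%. In the Mog body Susceptible 7 was the lowest at 76.3%, with the others at 84.7 to 85.7%. In the Cnp body Control 3 was the lowest at 76.5%, with the other 4 Control libraries at 77.7 to 78.1%.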

How the results depend on the processing

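No start window, body or tile of the 9 genes was called under any setting run. Over all features, leaving out 1 library gave 0 to 1 called start windows (1 without Control 4 and 1 without Susceptible 7) and 0 to 1 called tiles (1 without Control 4). With group means subtracted, 1 pair of genes passed in the covariation, on a permutation p that is not exact there. Some differences turned their sign. In starts, Mbp (+0.265 points) was -0.290 without Control 5 and Control 8, -0.678 over CpGs listed in all libraries, -2.59 with at least 20 calls, -0.580 within 500 bp and -1.499 within 2000 bp. Mog (-1.03) was +3.11 without Control 5 and Control 8, +4.18 with the replicate block and +1.502 within 500 bp. Olig1 (-0.214) was +0.0866 within 500 bp and +0.351 within 2000 bp, Olig2 (+0.230) was -0.514 with the block and -0.254 within 2000 bp, and Sox10 (+0.484) was -0.776 within 2000 bp. Opalin (+1.48) was -1.66 over CpGs listed in all libraries and -3.99 with at least 20 calls. Among bodies, Cnp (-0.684) was +1.78 with the block and +0.418 over CpGs listed in all libraries, Sox10 (-1.09) was +1.43 without Control 5 and Control 8 and +1.59 with the block, and Opalin (-0.0125) was +0.608 without Control 5 and Control 8, +0.292 with the block and +1.25 over CpGs listed in all libraries. Leaving out 1 library gave ranges of -1.36 to +1.48 (Mbp), -2.75 to +1.34 (Mog), -0.587 to +0.107 (Olig1), -0.152 to +0.623 (Olig2), -0.644 to +1.65 (Sox10) and -0.919 to +3.47 (Opalin) for starts, and -1.90 to +0.873 (Cnp), -2.40 to +0.550 (Sox10) and -0.668 to +0.520 (Opalin) for bodies. The cause was not tested. Differences of Mobp and Mag kept their sign under every setting run in starts and bodies, over -10.9 to -2.97 and +0.752 to +2.70 points for Mobp and -8.33 to -0.732 and -4.20 to -0.645 points for Mag, beside limma's values on its own scale.

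The replicate numbers 2 and 3 are shared by the groups, but same-numbered libraries did not deviate together over 30258 bodies (r = 0.01 and -0.04), so the numbers are not taken to pair the mice. With the replicate block on these 4 libraries the Mobp start difference was -7.68 points (unadjusted p = 0.0578), the Mag start and body differences -0.732 and -0.645 points (unadjusted p = 0.785 and 0.560), and 6 of 9 bodies had the higher mean, with a median of +0.873 points. The Mbp and Mobp body differences were +1.72 and +2.70 points with the block (quasi-binomial model, unadjusted p = 0.00472 and 0.0226, adjusted p = 0.989 for both). Over all bodies 4.45% had an unadjusted p under 0.05 there. With only 4 libraries the block fit leaves little spread of its own, so its p leans on the dispersion shared over all bodies. Effects of the block and of leaving out the other libraries cannot be told apart. The deposited minimum of 10 calls and 354 to 998 calls in the CpG-poor start windows limit what could be seen there, and hydroxymethylated cytosines also read as C.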
